A study of Mus musculus with 14 samples.

Results

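Utp14a and Nxt2 are X-linked genes, one of ribosome assembly and one of RNA export, whose reads were followed by allele through the differentiation of female ES cells. They were taken as the SNPs that lie in mm10 exons of Utp14a (chrX:48256862-48282453) or Nxt2 (chrX:142226770-142239692), with the reads of each allele summed over the SNPs of a gene. This gave 10 SNPs for Utp14a and 13 for Nxt2, together 23 of the 2239 SNPs of the table and 2 of the 355 X-linked genes that had SNPs. Both genes were selected on their allele ratio with Setdb1 hairpins and Nons at day 5 and, for Utp14a, on its bias to the 129 allele, so those values are given as a description without a test.

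The cells were ES cells of Setdb1+/+ Xist∆A/+ genotype, derived from E3.5 embryos of CAST sires and of dams that are 129/C57 in the labels and 129 in the methods. All groups shared the Xist∆A allele on the 129 X, which stays active (Xa) because this Xist cannot silence it, so the CAST X is the one inactivated (Xi). Untransduced cells in 2i and LIF were sampled at day 0, and cells under differentiation with the control hairpin Nons, with shSetdb1.4 or with shSetdb1.6 were sampled at day 3 and at day 5, all transduced cells under puromycin selection. Each of these 7 conditions had 2 replicates, which makes 14 RNA-seq libraries, and the replicates are described as independent experiments. The study also states that XO cells were present in this system. A fall of the CAST share from loss of the CAST X in some cells and from silencing cannot be told apart in bulk RNA, nor can fewer cells and less RNA per cell.

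Utp14a encodes a nucleolar protein of the small subunit processome, the large complex that assembles on the nascent pre-rRNA and is needed for maturation of 18S rRNA. Nxt2 encodes an NTF2-like protein that pairs with NXF export receptors, which carry mRNA through the nuclear pore. A gene that is subject to X inactivation loses RNA from the Xi while the Xa goes on being transcribed, so the ratio of CAST to 129 reads falls. Utp14a has a retrogene copy on an autosome (Utp14b) and Nxt2 has a paralog (Nxt1), so some reads could belong to a related gene.

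The SNPs are shown because the results depend on which of them are read. Of the 10 Utp14a SNPs, all coding, 7 lie in exon 12. That exon is also covered by an exon of 9530027J09Rik (ENSMUSG00000097197.1), a lincRNA on the opposite strand at chrX:48276792-48285426, and the library kit does not mark the strand. The following stretch of exon 12 of Utp14a (ENSMUSG00000063785.12, plus strand) is chrX:48277328-48277587 of mm10 (GRCm38), 5′ to 3′ and read from the GENCODE transcript, with the 129 base of the SNPs in capitals.
Utp14a exon 12: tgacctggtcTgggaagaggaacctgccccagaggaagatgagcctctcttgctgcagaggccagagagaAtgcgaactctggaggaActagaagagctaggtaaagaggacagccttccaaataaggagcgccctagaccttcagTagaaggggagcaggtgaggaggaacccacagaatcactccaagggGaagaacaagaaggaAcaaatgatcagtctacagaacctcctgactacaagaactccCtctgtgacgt
The remaining Utp14a SNPs lie one each in exons 13, 14 and 15 and in no other gene, and carry the value of Utp14a in all tests. Names give the 129 base, the mm10 position on chromosome X and the CAST base, and the capital in each stretch of 25 bases is the 129 base.
A48278501G, exon 13: ggatctgaccttAcctggctgggga
G48278755T, exon 14: aaacatccatgcGgcagctcaccag
G48282268C, exon 15: cgtgcctgtcatGcagagcaatcca
In Nxt2 (ENSMUSG00000042271.13, plus strand) 1 SNP lies in exon 2, at a position that is coding in 1 of the 4 transcripts with that exon, and 12 lie in the 3′ UTR part of exon 5. SNPs closer than the read length of 100 bases can be covered by one read, which puts the 13 SNPs into 6 groups along the gene. The SNP of exon 2 and the most deeply read SNPs of groups 3 and 4, which held most of the reads, are shown in the same way.
G142228320C, exon 2, group 1: gcgcggaagtgcGgacatctccggg
G142238469T, exon 5, group 3: ctgaaaccttttGttcgtgccggct
A142238836G, exon 5, group 4: ctcagtctctgtAcatgctgaactc

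The libraries held 32972 to 101511 reads over all SNPs, and the shallowest was day 5 Nons replicate 2. Reads over the 3 Utp14a SNPs numbered 170 to 530 per library, and reads over the 13 Nxt2 SNPs 83 to 583. Wilson intervals (95%) cover counting error alone and are too narrow where a read was counted at several SNPs. Of the pluripotency markers on the X, Nr0b1 had 338 to 1288 reads in the libraries of day 0 and day 3 and 8 to 39 at day 5, whereas Dusp9 had 143 to 272 and 175 to 751 reads. Among X-linked markers of other cell types, Sox3 had 4 to 56 reads, and Gata1, Dcx and Tlr7 had no exonic SNP in the table.

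Utp14a was read mostly from the 129 allele in every library. At its own 3 SNPs the CAST share at day 0 was 45.9% (interval 39.7% to 52.2%) in replicate 1 and 41.0% (35.6% to 46.6%) in replicate 2. At day 3 it was 38.6% and 38.5% for Nons. The hairpin shSetdb1.4 gave 34.4% and 36.5%, and shSetdb1.6 gave 42.4% and 38.4%. Day 3 Nons was thus below day 0 in both replicates, and the hairpin libraries lay on both sides of Nons. At day 5 Nons it was 18.5% (15.1% to 22.5%) and 22.4% (17.4% to 28.3%), the lowest 2 values of the series. The day 5 values of shSetdb1.4 were 23.9% and 35.3%, and those of shSetdb1.6 were 31.0% and 28.2%. All 4 hairpin libraries were therefore above both Nons libraries of that day, and 3 of the 4 were below every library of day 0 and day 3, the exception being shSetdb1.4 replicate 2.

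On the log2 scale of (CAST + 1)/(129 + 1) the order of the 7 conditions for these SNPs ran from day 0 (-0.38 ± 0.20, SD, n = 2) over day 3 shSetdb1.6 (-0.56 ± 0.17), day 3 Nons (-0.67 ± 0.0064) and day 3 shSetdb1.4 (-0.86 ± 0.094) to day 5 shSetdb1.6 (-1.25 ± 0.13), day 5 shSetdb1.4 (-1.27 ± 0.56) and day 5 Nons (-1.95 ± 0.25). Neighbours in this order overlapped between day 0, day 3 shSetdb1.6 and day 3 Nons, and between the 2 hairpins at day 5. The median of the 247 tested genes was -0.082 at day 0 and -0.32 at day 5 Nons. Utp14a had a lower mean ratio than most of them throughout. At day 0, 57 of 247 genes (23.1%) were lower, at day 5 Nons 9 (3.64%), and 6 (2.43%) and 7 (2.83%) for the hairpins shSetdb1.4 and shSetdb1.6 at day 5.

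**Figure D1:**
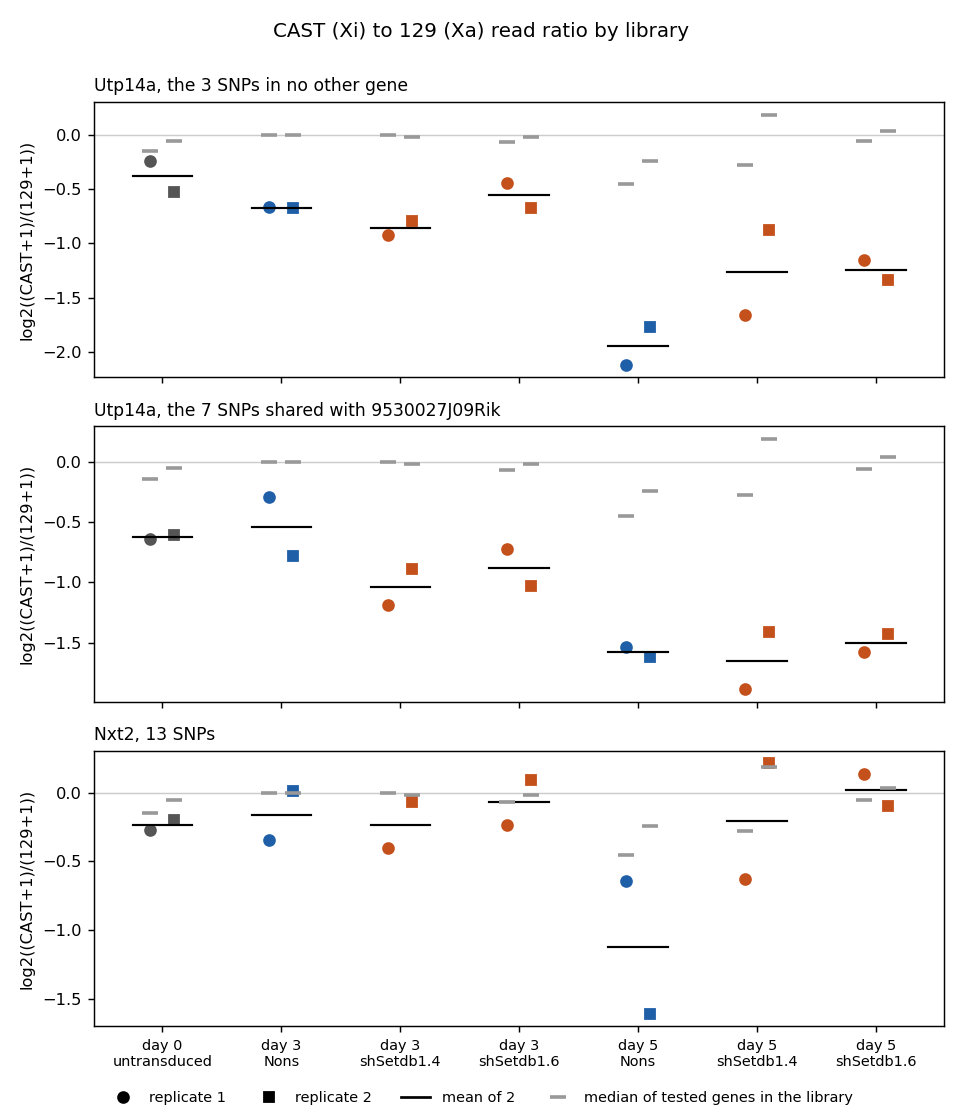
Log2 ratio of CAST (Xi) to 129 (Xa) reads, with 1 added to each count, in each library of the 7 conditions, for Utp14a by its own 3 SNPs, Utp14a by the 7 SNPs shared with 9530027J09Rik, and Nxt2. Circles are replicate 1, squares replicate 2, black lines the mean of 2, and grey dashes the median of the 247 tested genes in that library. The own SNPs of Utp14a are lowest at day 5 Nons (-2.12 and -1.77), and the shared ones are as low with the hairpins. Nxt2 has its lowest mean at day 5 Nons, where its replicates lie apart (-0.64 and -1.61).

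The levels of the 2 alleles show which of them moved with time. Reads of the 129 allele per 1000000 reads at all X-linked SNPs of the library (RPM) went from 1890 ± 349 (SD, n = 2) at day 0 to 3350 ± 219 at day 3 Nons and 4590 ± 925 at day 5 Nons. Reads of the CAST allele went from 1440 ± 65.8 to 2100 ± 130 and then to 1210 ± 439. With the hairpins at day 5 the CAST level was 1390 ± 634 RPM for shSetdb1.4 and 1330 ± 60.8 RPM for shSetdb1.6, overlapping Nons. The 129 level was 3200 ± 255 and 3180 ± 155 RPM, below both Nons libraries. The higher ratio of the hairpin libraries at day 5 thus went with a lower 129 level and with CAST levels that overlapped. These are shares of the X-linked SNP reads, so a change in other X-linked genes moves them as well.

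The day 5 difference between hairpins and Nons was larger at the own SNPs of Utp14a than over the shared ones summed, a contrast that was not tested. Within a replicate, the log2 ratio at the 3 own SNPs was higher than in Nons by 0.46 and 0.90 for shSetdb1.4 (replicates 1 and 2) and by 0.97 and 0.43 for shSetdb1.6. Over the 7 shared SNPs the same differences were -0.35, 0.20, -0.043 and 0.19. The fitted difference was 0.75 (SE 0.22) at the own SNPs, 0.0082 (SE 0.18) at the shared ones and 0.24 (SE 0.16) with all 10 together. With the ratio centred on the library median, which was higher in the hairpin libraries than in Nons of the same replicate, the own SNPs gave 0.42. In this comparison 10 of the 247 genes (4.05%) passed an adjusted p of 0.05, 9 with a higher ratio and 1 with a lower one, and the median difference of all genes was 0.35. The difference at Utp14a was among those used to choose it. The number of genes called depended on the libraries and the model, with 0 called without the replicate block and 1 by DESeq2.

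Single SNPs did not divide cleanly into own and shared. For G48282268C the CAST share, with the 2 libraries of a condition summed, was 21.7% at day 5 Nons and 35.2% with either hairpin. For G48278755T it was 14.7% against 26.6% (shSetdb1.4) and 23.2% (shSetdb1.6). A48278501G gave 22.6% against 31.2% and 29.4%. Of the shared SNPs, T48277338C was also higher, with 27.5% against 31.1% and 37.7%, as was A48277398G with 29.3% against 32.1% and 34.2%. A48277535G was slightly higher, with 13.5% against 14.8% and 13.7%. T48277474A was lower, with 35.9% against 30.2% and 33.2%. By library, 11 of 12 comparisons of an own SNP with Nons of the same replicate were higher at day 5, against 16 of 28 at the shared SNPs. SNPs of one gene share their libraries, so these counts are not independent.

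Allele shares also differed along exon 12 in every condition. At day 0 the first 4 shared SNPs had CAST shares of 48.5%, 45.3%, 48.0% and 44.3%, and the following 3 had 31.8%, 26.0% and 25.7%. The last 3 (G48277520A, A48277535G and C48277577T) were below the first 4 in 14 of 14 libraries, by 7.7 to 24.7 percentage points, a division made after the values were seen. They were also below the own SNPs in 14 of 14 libraries, while the first 4 were above the own SNPs in 14 of 14. Between 2 and 4 other SNPs lie within a read length of each shared SNP and none of each own SNP. Over all libraries the CAST share was 39.4% at the first shared SNP and 19.4% at the last. The part of antisense reads and of SNP-dense reads that fail to align was not tested. Summed over the 7 shared SNPs the CAST share was below that of the own SNPs in 11 of 14 libraries, with 39.1% and 39.6% at day 0. It was above in the other 3, namely both day 5 Nons libraries (25.6% and 24.5%) and day 3 Nons replicate 1 (44.9%).

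**Figure D2:**
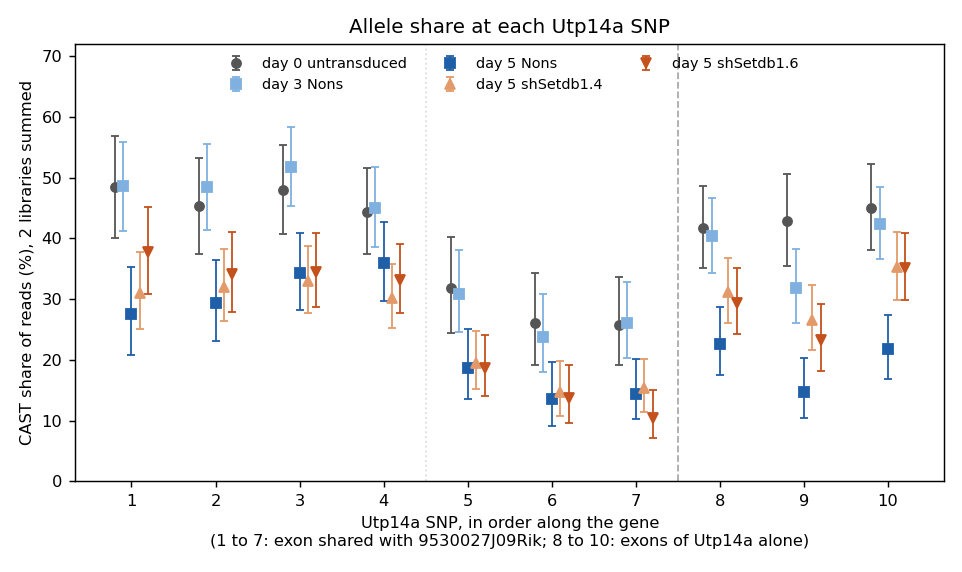
CAST share of reads at the 10 Utp14a SNPs in order along the gene, with the 2 libraries of a condition summed and Wilson 95% intervals as bars, for day 0, day 3 Nons and the 3 conditions of day 5. SNPs 5 to 7 lie below SNPs 1 to 4 in each condition, and the hairpins lie above Nons at day 5 at SNPs 8 to 10, with intervals that overlap those of Nons at SNP 8 and, for shSetdb1.6, at SNP 9. They also lie above Nons at SNPs 1, 2 and 6, with overlapping intervals.

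The fall with time, in contrast, was seen at both sets of SNPs. From day 3 to day 5 with Nons the log2 ratio at the own SNPs changed by -1.46 and -1.10 in the 2 replicates, and at the shared SNPs by -1.24 and -0.83. After subtraction of the library medians it was -1.01 and -0.86, and -0.79 and -0.59. The fit gave -1.30 (SE 0.25) for the own SNPs and -1.02 (SE 0.20) for the shared ones. In this comparison 25 of 247 genes (10.1%) passed, 24 with a lower ratio and 1 with a higher one. Because it uses the day 5 Nons libraries with which the genes were chosen, it carries no test here.

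Nxt2 had nearly even alleles until day 3. Its CAST share over 13 SNPs was 45.3% (41.3% to 49.3%) and 46.5% (41.3% to 51.8%) at day 0. At day 3 Nons had 44.0% and 50.3%, shSetdb1.4 had 43.0% and 48.9%, and shSetdb1.6 had 45.9% and 51.7%. At day 5 Nons the replicates parted, with 39.1% (34.9% to 43.4%) of 512 reads in replicate 1 and 24.1% (16.2% to 34.3%) of only 83 reads in replicate 2. The day 5 shares of shSetdb1.4 were 39.3% and 53.7%, and those of shSetdb1.6 were 52.3% and 48.4%. Replicate 1 of shSetdb1.4 therefore stood level with Nons, and the other 3 hairpin libraries were above both Nons libraries.

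In the order of mean log2 ratios, day 5 shSetdb1.6 was highest for Nxt2 (0.020 ± 0.16, SD, n = 2) and day 5 Nons lowest (-1.12 ± 0.69). The other 5 conditions lay between -0.24 and -0.071. All neighbours in this order overlapped except day 0 and day 5 Nons. At day 5 Nons 19 of the 247 genes (7.69%) had a lower mean ratio than Nxt2, and at day 0 85 (34.4%). Nxt2 with shSetdb1.6 at day 5 stood in the middle of the genes, with 122 (49.4%) lower.

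The difference of Nxt2 between hairpins and Nons at day 5 was larger in replicate 2. Within replicate 1 it was 0.014 for shSetdb1.4 and 0.77 for shSetdb1.6, and within replicate 2 1.82 and 1.51. The fit, which weights libraries by their reads, gave 0.74 (SE 0.22). It gave 0.41 without day 5 Nons replicate 2 and 1.68 without day 5 Nons replicate 1, 0.41 with 6 SNPs at least 100 bases apart, and 0.36 with centred ratios. In the 4 SNPs of group 3, which can share reads, the CAST share was 38.7% and 26.8% in the Nons libraries, 44.8% and 57.3% in those of shSetdb1.4, and 58.8% and 47.8% in those of shSetdb1.6. All 4 hairpin libraries were above both Nons libraries in that group. In the 3 SNPs of group 4 it was 32.5% and 14.8% with Nons, and 28.6%, 45.1%, 40.0% and 47.1% in the hairpin libraries, of which the first, shSetdb1.4 replicate 1, lay between the Nons values. Of the 52 comparisons of a SNP with Nons of the same replicate, 28 were higher, 4 lower and 20 had under 10 reads in a library. SNPs of a group can share reads and all SNPs share their libraries, so these counts are not independent. Nxt2 was also chosen on this difference. Groups 1, 2, 5 and 6 had 2 to 5 reads each in day 5 Nons replicate 2, which gives no usable ratio there. In replicate 1, group 2 went the other way, with 66.7% CAST of 33 reads for Nons against 39.4% of 33 (shSetdb1.4) and 58.1% of 43 (shSetdb1.6). Group 1 had 41.2% against 41.7% and 66.7%, and group 5 had 38.6% against 47.2% and 51.4%. Group 6 had only 6 reads for Nons.

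**Figure D3:**
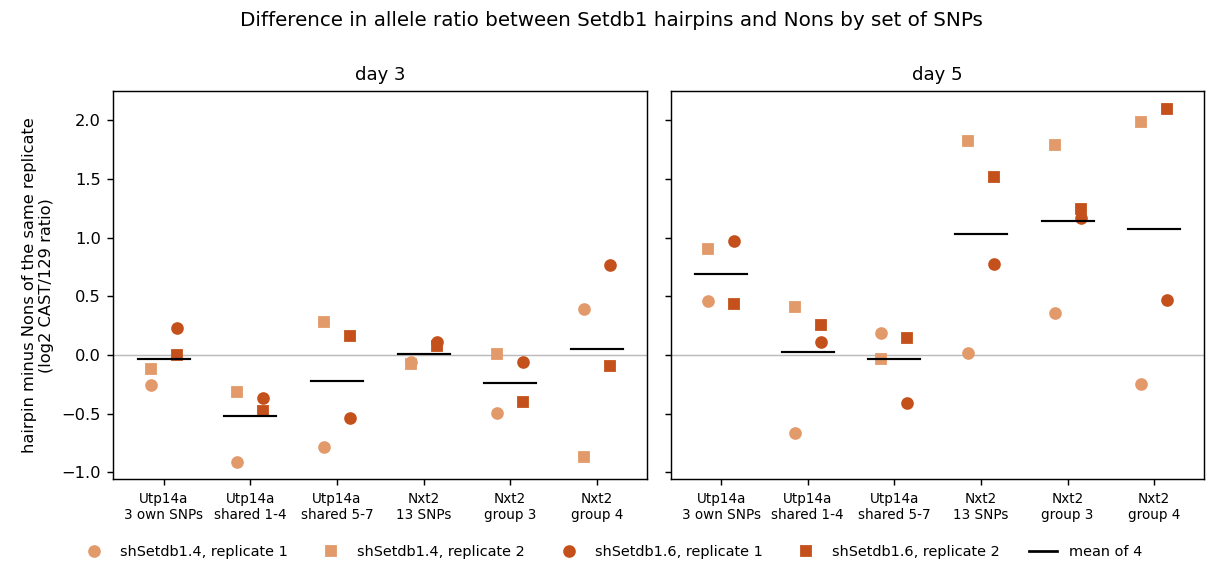
Log2 CAST to 129 ratio of each Setdb1 hairpin library minus that of Nons in the same replicate, at day 3 and day 5, for sets of SNPs of Utp14a and Nxt2. Light symbols are shSetdb1.4 and dark ones shSetdb1.6, circles replicate 1 and squares replicate 2, and lines the mean of 4. The 4 values of the own SNPs of Utp14a at day 5 lie between 0.43 and 0.97, those of its shared SNPs lie on both sides of 0, and those of Nxt2 are higher in replicate 2.

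From day 3 to day 5 with Nons, Nxt2 changed by -0.30 in replicate 1 and by -1.62 in replicate 2. The fit gave -0.68 (SE 0.28), and -0.086 with the 6 SNPs at least 100 bases apart. After subtraction of the library medians replicate 1 changed by 0.15 and replicate 2 by -1.38. A lower ratio of Nxt2 than at day 3 beyond that of the other genes was thus seen in the shallow replicate alone.

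The comparisons that were not used to choose the genes gave no call for either allele ratio (edgeR's quasi-likelihood test, Benjamini-Hochberg adjustment over 247 genes). From day 0 to day 3 Nons the log2 ratio of Utp14a changed by -0.29 (SE 0.24, adjusted p = 0.877) and that of Nxt2 by 0.068 (SE 0.25, adjusted p = 0.984). Here 0 of 247 genes (0%) passed, 0 by DESeq2 as well, and 11 had an unadjusted p under 0.05. At the shared SNPs the Utp14a value was 0.069. With hairpins against Nons at day 3, Utp14a differed by -0.043 (SE 0.21, adjusted p = 0.985) and Nxt2 by 0.019 (SE 0.24, adjusted p = 0.985), again with 0 of 247 genes (0%) called by either tool and 7 with an unadjusted p under 0.05. At the shared SNPs the Utp14a difference at day 3 was -0.41 (SE 0.17, adjusted p = 0.985), and its 4 values within replicates were all below 0, from -0.90 to -0.11. Between the hairpins at day 5, which share the libraries with which the genes were chosen and are described without a test, shSetdb1.6 minus shSetdb1.4 was -0.027 (SE 0.24) for Utp14a and 0.25 (SE 0.23) for Nxt2, with 1 of 247 genes (0.405%) called.

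Reads over both alleles moved in opposite directions for the 2 genes between day 0 and day 3. Utp14a had 3032 and 3619 RPM at day 0, and 5195 and 5690 at day 3 Nons. The groups did not overlap, and day 0 was the lowest of the 7 conditions. The log2 change was 0.74 (SE 0.22, adjusted p = 0.0525), just over the threshold, in a comparison where 18 of 247 genes (7.29%) passed. With a replicate block it passed, at 0.75 (adjusted p = 0.0155), and 39 genes passed. Across the other models and filters it was 0.69 to 0.83 with adjusted p from 0.015 to 0.0689, and at the shared SNPs it was 0.75 (adjusted p = 0.0533). It passed without day 0 replicate 2 (0.92, adjusted p = 0.0379), where 38 genes passed, and did not without any of the other 3 libraries, with 0 genes passing without day 3 Nons replicate 2. Nxt2 had 7304 and 4150 RPM at day 0 and 3580 and 2213 at day 3 Nons. These did not overlap either, but the day 0 replicates were far apart. The change was -0.95 (SE 0.38, adjusted p = 0.154), it passed with the replicate block (-0.94, adjusted p = 0.0445), and it was -0.44 without day 0 replicate 1. Across the remaining models and filters it was -0.99 to -0.86 with adjusted p from 0.128 to 0.199.

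Later totals did not pass the test. From day 3 to day 5 with Nons, Utp14a changed by 0.11 (SE 0.22, adjusted p = 0.721) to 4834 and 6763 RPM, while 69 of 247 genes (27.9%) passed. The falling allele ratio of Utp14a between these days thus went with no detectable fall of its total. Nxt2 changed by 0.59 (SE 0.39, adjusted p = 0.257) to 5879 and 2517 RPM, replicates that did not lie together. Without day 5 Nons replicate 1 this change was -0.15 (adjusted p = 0.807), and without replicate 2 it was 1.11 (adjusted p = 0.0442).

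With hairpins against Nons, 0 of 247 genes (0%) passed in total reads on either day by edgeR or DESeq2, while 4 genes at day 3 and 7 at day 5 were under an unadjusted 0.05. For day 3 the difference was -0.11 (SE 0.19, adjusted p = 0.993) for Utp14a and 0.27 (SE 0.34, adjusted p = 0.993) for Nxt2. Nxt2 had 2470 and 2460 RPM for shSetdb1.4, within the range of Nons, and 5506 and 4099 RPM for shSetdb1.6, above it. At day 5 Utp14a had 3963 and 5221 RPM for shSetdb1.4 and 4446 and 4578 RPM for shSetdb1.6, a difference from Nons of -0.29 (SE 0.19, adjusted p = 0.987). Nxt2 had 5375 and 3044 RPM for shSetdb1.4 and 4881 and 6825 RPM for shSetdb1.6, a difference of 0.26 (SE 0.33, unadjusted p = 0.443) that was -0.25 without day 5 Nons replicate 2.

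**Figure D4:**
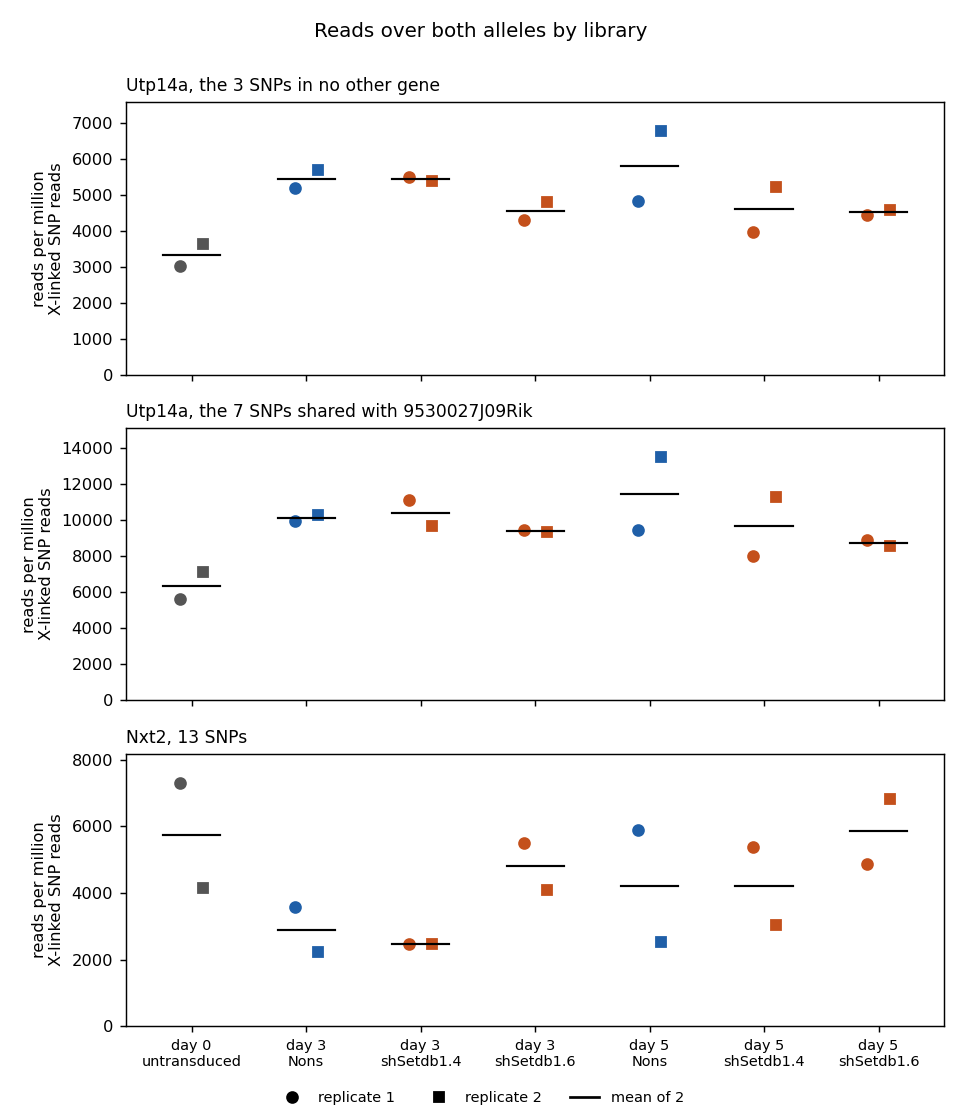
Reads over both alleles in RPM (relative to the reads at all X-linked SNPs) in each library of the 7 conditions, for Utp14a by its own 3 SNPs, Utp14a by the shared 7 SNPs, and Nxt2, with circles for replicate 1, squares for replicate 2 and lines for the mean of 2. Utp14a is lowest at day 0 by either set (3032 and 3619 at its own SNPs), and the Nxt2 replicates are far apart at day 0 (7304 and 4150) and at day 5 Nons (5879 and 2517).

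The genes whose pattern was most like that of the members over the 14 libraries are given as a description. For the Utp14a allele ratio, with library medians subtracted, these were Bex2 (Pearson r = 0.862), Klf8 (0.853) and Prps1 (0.852), out of 246 genes compared. For Nxt2 they were Fmr1 (0.738), Tab3 (0.691) and Elf4 (0.687). The ratios of Utp14a and Nxt2 had r = 0.381 with each other. For log2 totals in RPM, Pdzd4 (0.852), Tceal8 (0.817) and Kdm5c (0.8) were most like Utp14a, and Jade3 (0.869), Elk1 (0.867) and Ints6l (0.849) most like Nxt2. The totals of the 2 members ran against each other (r = -0.774). The points share libraries, conditions and depth, and totals are shares of one sum.

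Nearby genes were compared as well. On either side of Utp14a the nearest tested genes were Zdhhc9, a palmitoyltransferase gene that ends 47984 bases before it, and Bcorl1, a gene of a BCOR-like corepressor that starts 58905 bases after it. From day 3 to day 5 with Nons their log2 ratios fell by 1.59 (adjusted p = 4.04e-06) and 1.90 (adjusted p = 0.00371). Between hairpins and Nons at day 5 they differed by 0.82 (adjusted p = 0.039) and 0.92 (adjusted p = 0.135). The call of Zdhhc9 there rests on the replicate block, without which 0 genes passed. Next to Nxt2, Acsl4, a long-chain acyl-CoA synthetase gene 78301 bases away, changed by -0.61 (adjusted p = 0.0587) and 0.47 (adjusted p = 0.103). On the other side the nearest tested gene was Psmd10, which encodes a proteasome assembly chaperone and lies 1270042 bases away. Its values were 0.085 (adjusted p = 0.861) and 0.040 (adjusted p = 0.956). These are the comparisons with which the members were chosen, and they share their Nons libraries.

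Of 9 X-linked genes of ribosome assembly and ribosomal proteins, 5 were tested: Utp14a, Dkc1 (pseudouridine synthase of H/ACA snoRNPs), Gnl3l (nucleolar GTPase), Las1l (pre-rRNA processing) and Tsr2 (a chaperone of a small subunit protein). Leaving out Utp14a, which carries no test at day 5, 0 of 4 passed in the 5 allele comparisons, where at most 10.1% of all genes did. Between hairpins and Nons at day 5 the list ran from -0.012 for Tsr2 to 0.75 for Utp14a, with a median of 0.21 against 0.35 over all genes. From day 3 to day 5 with Nons Dkc1 was at 0.27 (adjusted p = 0.326) and the list median at 0.10, against -0.33 over all genes. In totals Tsr2 alone passed, 1 of 5 against 27.9% of all genes, falling by 0.94 (SE 0.25, adjusted p = 0.0125) from day 3 to day 5 with Nons.

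Of 24 genes of RNA export, splicing and RNA binding, 14 were tested, and 0 of the 13 other than Nxt2 passed in an allele comparison, where at most 10.1% of all genes did. Between hairpins and Nons at day 3 the list ran from -0.63 (SE 0.46, adjusted p = 0.985) for Cstf2, a 3′ end processing factor, to 0.48 (SE 0.36, adjusted p = 0.985) for Nxf3, an X-linked member of the NXF export family. At day 5 the list ran from -0.052 for Cstf2 to 0.76 for Rbmx, a splicing regulator (adjusted p = 0.135). Its median was 0.39 against 0.35 over all genes, and 13 of 14 were above 0, as were 206 of 247 genes. From day 3 to day 5 with Nons its median was -0.30 against -0.33, and 11 of 14 were below 0. In totals Eif2s3x, which encodes a subunit of translation initiation factor eIF2, fell by 0.74 (SE 0.22, adjusted p = 0.0226) from day 3 to day 5 with Nons, and it was the single gene of the list to pass, 1 of 14 against 27.9% of all genes.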

How the data were processed

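Allele-specific RNA-seq was analysed in 14 libraries of 7 conditions. Single-end reads of 100 bp had been aligned by the authors to mm10 (Subread), and they deposited raw counts per SNP and allele, taken with samtools pileup (the submitters' processing notes name CASAVA 1.8.2 and SAMtools). From it, 28 count columns were used, and 4 per-sample columns were not used here. Depth was 32972 to 101511 reads per library.

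SNPs were assigned to genes by exon with GENCODE vM21 (GRCm38), which gave 2173 SNPs in exons of 1 gene and 31 in exons of 2. Gene values used the former. Strand is not marked by the kit, so antisense reads cannot be told apart. Allele counts were fitted with edgeR 4.0.16 (quasi-likelihood test, R 4.3.3) with library terms, condition-specific allele effects and a replicate effect on the allele ratio (block), and totals with TMM and without a block. The 247 genes with no library under 10 reads were tested, and adjusted p-values (Benjamini-Hochberg) under 0.05 were counted. The SE of a fitted value is its absolute log2 change divided by the square root of the F statistic of that test. Library values are log2 ratios with 1 added to each count. The block follows the study, which sampled each of 2 experiments through differentiation and compares hairpins with Nons within a replicate. The main fit of totals left this pairing out. With the block the totals of both genes passed from day 0 to day 3 Nons. Deviations of same-numbered libraries from the condition means had a mean correlation of 0.208 for totals (21 pairs, -0.0586 to 0.657) and 0.0514 for allele ratios (-0.139 to 0.266). On simulated data with 49 of 242 genes changed 2-fold, the allele test recovered 61.2% (day 5 hairpins against Nons, 2 false calls). For totals the share was 36.7% (day 3 Nons against day 0, 1 false call). The simulation had no allele shift common to all genes and no replicate effect, so its shares need not hold for these data.

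The members and lists were chosen with earlier results of these data known. Named are the members, for each the 3 most similar tested genes by ratio and by total, the nearest tested neighbours, and list genes past the threshold or at the ends of a list. Dkc1, Gnl3l and Las1l are also named as the tested genes of a short list. Alternatives used DESeq2 1.42.0, other filters, SNP sets and scalings, and left out libraries. The total counts with all SNPs of the gene body and the use of the 7 shared SNPs were added after the data were seen. Setdb1 itself is autosomal and was not analysed here, so the knockdown was not checked. Python 3.11.15, numpy 2.4.6, pandas 2.3.3, scipy 1.17.1 and matplotlib 3.10.9 were used. Some marker genes are not reported here.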

Additional observations from a re-analysis of the deposited data

How the results depend on the processing

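Of the values of the 2 genes with a test none passed the threshold in its main form, which for totals has no replicate block. The following changed side or sign. The total of Utp14a from day 0 to day 3 Nons passed at 0.80 with at least 30 reads per library, 0.83 with no filter, 0.83 with SNPs at least 100 bp apart, 0.75 with the replicate block and 0.82 with DESeq2, and that of Nxt2 passed at -0.94 with the replicate block (adjusted p = 0.0445). The genes called there numbered 39 with the block against 18 without. The block changed no other call of the 2 genes with a test. Without a replicate block the allele ratio of Utp14a at day 5 was 0.75 and that of Nxt2 0.80. Utp14a at day 5, hairpins minus Nons, moved to 0.42 with centring, 0.24 with all SNPs between gene start and end and 0.0082 at the 7 shared SNPs, and its change from day 3 to day 5 with Nons to -0.96 with centring and -1.02 at the shared SNPs. From day 0 to day 3 the Utp14a ratio was 0.069 at the shared SNPs, and that of Nxt2 -0.17 with SNPs at least 100 bp apart and -0.030 with centring. Between the hairpins Utp14a was at 0.083 with all SNPs of the gene body and at 0.11 at the shared SNPs.

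The genes called between hairpins and Nons at day 5 numbered 10 in all, 0 with no replicate block, 1 with DESeq2, 3 with no filter, 17 with spaced SNPs, 1 (a lower one) with centring and 5 with the day 5 libraries alone. Between the hairpins 1 gene became 0 without the block, from day 0 to day 3 the allele ratio had 1 call with centring, and at day 3 hairpins against Nons had 1 with no filter.

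Leaving out 1 library at a time gave these ranges. For the allele ratio of Utp14a they were -0.52 to -0.087 from day 0 to day 3, -0.12 to 0.060 for hairpins at day 3 (0.0043 without day 3 Nons replicate 1), 0.53 to 0.95 for hairpins at day 5, -1.43 to -1.14 from day 3 to day 5, and -0.39 to 0.45 between the hairpins (0.13 without shSetdb1.6 replicate 2). For Nxt2 they were -0.054 to 0.19, -0.11 to 0.14 (-0.042 and -0.037 without a replicate 2 of a hairpin), 0.41 to 1.68, -1.62 to -0.35 and -0.19 to 0.65. For totals they were 0.69 to 0.92, -0.10 to 0.36, -0.19 to -0.057 and -0.54 to -0.080 for Utp14a, and -1.34 to -0.44, -0.15 to 1.11, -0.054 to 0.66 and -0.25 to 1.00 for Nxt2, in the order day 0 to day 3, day 3 to day 5, hairpins at day 3 and hairpins at day 5. The genes called ranged over 0 to 1 (ratio, hairpins at day 3), 1 to 53 (hairpins at day 5, with 53 without shSetdb1.4 replicate 1), 10 to 14 (day 3 to day 5), 0 to 2 (between the hairpins), 0 to 38 (total, day 0 to day 3) and 23 to 73 (total, day 3 to day 5). The cause of these shifts was not tested. Of all values recomputed under an alternative, 286 kept their side, or moved by less than the spread or (counts) by under 1.5 times, 44 moved, 18 changed sign and 8 crossed the threshold upwards. A pseudocount of 0.5 changed no library mean beyond its spread. With 83 reads of Nxt2 in its shallowest library and 170 of Utp14a, depth limits both genes.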
